A study of Mus musculus with 16 samples.

Results

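The genes of the MHC class I antigen presentation pathway and of the immunoproteasome were examined in cells of the mouse colon epithelium sorted by a reporter of Atoh1, the transcription factor that directs cells of the intestinal epithelium to the secretory fate. The set was fixed by name and holds 10 of the 45513 genes counted: H2-K1, H2-D1, B2m, Tap1, Tap2, Tapbp, Psmb8, Psmb9, Psmb10 and Nlrc5. All 10 were found in the tables under 1 identifier each, and all 10 passed the filter on low counts.

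The mice carried Atoh1(WT)CreERT2, in which a tamoxifen-inducible Cre recombinase is made downstream of the wild-type Atoh1 coding sequence, and 1 copy of Rosa26tdTom, a Cre reporter, and both sorted populations share these alleles. They were males and females of C57BL/6 background, aged 8 to 16 weeks, and homozygous for the Cre allele. Per the labels, each mouse received 1 mg of tamoxifen a day for 3 days, and live EpCAM+ cells of the colon were sorted into tdTom+ and tdTom− cells, so that every one of the 8 mice gave a tdTom+ and a tdTom− sample (16 samples). The tdTom label marks cells that expressed Atoh1 at the time of tamoxifen and their descendants, the tdTom− population holds every other EpCAM+ cell, and no gate on leukocytes was described.

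MHC class I molecules stand on nearly all nucleated cells and show peptides of the cell's own proteins to CD8 T cells. The proteasome cuts the proteins, the Tap1-Tap2 pump moves the peptides into the endoplasmic reticulum, tapasin (Tapbp) holds an empty class I molecule at the pump, and the heavy chain (H2-K1 or H2-D1 in this strain) leaves for the surface with B2m and a peptide. Interferon exchanges the 3 catalytic subunits of the standard proteasome for Psmb8, Psmb9 and Psmb10, which make the immunoproteasome, and Nlrc5 is the transactivator of the class I genes.

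Of the 10 genes, 7 lie in or beside the MHC region of chromosome 17 in the GRCm38 annotation of the tables. From low to high coordinates these are Tapbp (33915899 to 33929288, plus strand), H2-K1 (33996017 to 34000333, minus), Psmb9 (34181988 to 34187764, minus), Tap1 (34187553 to 34197225, plus), Psmb8 (34197721 to 34201454, plus), Tap2 (34203527 to 34216321, plus) and H2-D1 (35262730 to 35267499, plus). B2m is on chromosome 2 (122147686 to 122153083, plus), and Psmb10 (105935728 to 105938392, minus) and Nlrc5 (94472763 to 94527272, plus) are on chromosome 8. Tap1 and Psmb9 point away from each other, and their RefSeq starts are 226 bases apart. Their annotated exons overlap by 212 bases on opposite strands, and the counting used the strand.

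The 3 genes whose products form the class I molecule carry a like order of short motifs upstream of their starts. RefSeq promoter windows of GRCm38.p6, 250 bases before to 50 after each start, were at hand for 8 of the 10 genes (not Tap2 or Nlrc5), with 2 windows for H2-K1, of which the one at the gene start of the tables is printed. Motifs were searched on both strands. In all 3 genes the letters TGACG, part of the cyclic AMP response element, start exactly 25 bases before the start of ATTGG, which is CCAAT read on the other strand. This spacing, the only one counted, is the one these genes have, so the count is no test of them. It was present in 31 of 32851 windows (0.0944%), of which 4 are windows of these 3 genes, including the 2 overlapping windows of H2-K1. TGACG at any place was in 20.8% and CCAAT in 37.4%, and a pair at a fixed spacing cannot be more common than either. Both matches are in capitals.
H2-K1: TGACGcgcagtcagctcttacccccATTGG
H2-D1: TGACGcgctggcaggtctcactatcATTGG
B2m: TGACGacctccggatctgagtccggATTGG
The stretches are chr17:34000359-34000388 on the minus strand, chr17:35262993-35263022 on the plus strand and chr2:122147609-122147638 on the plus strand. Their first bases stand at positions -55, -101 and -78, counted with -1 as the base before the start. H2-K1 and H2-D1 shared 23 of the 30 bases, H2-K1 and B2m shared 13, and H2-D1 and B2m shared 12, of which 10 in each pair are the searched letters.

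Further upstream, the same 3 genes held GGGA and, after 4 free bases, CC, the core of an NF-kB site, which 20.7% of all windows hold. Each of these genes held 2 overlapping matches, 1 on each strand. Next to it, B2m also held GAAA and, after 2 free bases, GAAA again, as 3.44% of windows do. These are the letters of an interferon-stimulated response element. Only this exact spelling was searched, so a variant of the element in the H2-K1 or H2-D1 stretch would not be marked. Matches to either motif are in capitals.
H2-K1: tGGGGATTCCCCatctccacagtttcactt
H2-D1: tGGGGATTCCCCatctcctcagtttcactt
B2m: atGAAACTGAAAatGGGAAAGTCCCtttgt
These lie at chr17:34000430-34000459 (minus strand), chr17:35262922-35262951 (plus) and chr2:122147546-122147575 (plus). The 2 heavy chain genes differed at 1 of 30 bases here, while B2m shared 7 of 30 with H2-K1 and 6 of 30 with H2-D1. Both H2-D1 stretches fall within the first exon of a longer annotated transcript of the gene.

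Of the other genes with a window, Psmb8 held the only match to TTCNNNGAA, a gamma-activated sequence (8.3% of windows), in capitals here.
Psmb8: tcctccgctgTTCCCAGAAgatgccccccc
It lies at chr17:34198088-34198117 on the plus strand, within an annotated exon of Psmb8. The windows of Tap1 and Psmb9 held the same TGACG and the same CCAAT, in the shared stretch between their divergent starts, and not at the 25-base spacing. Tapbp held CCAAT at 2 places, and Psmb10 held none of the 5 motifs. These are matches of letters, and binding was not measured.

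The libraries were alike in depth, with 1 exception. Total counts ran from 16482530 to 24218367 in the tdTom+ samples and from 18318172 to 45791503 in the tdTom− samples, where the deepest was that of mouse 4 and the next was 20668605. The share of counts in mitochondrial genes was 2.23% to 6.92% in tdTom+ and 3.74% to 9.97% in tdTom− samples, lower in the tdTom+ sample of 8 of 8 mice, and its part in the results was not tested. Epcam was at 1121 to 1313 counts per 1000000 counts in genes (CPM, scaled with TMM) in tdTom+ cells and at 1313 to 1521 CPM in tdTom− cells. Atoh1 itself averaged 132 CPM in tdTom+ cells, beside 5.70 in the tdTom− ones. All 8 goblet cell markers were higher in tdTom+ cells, 8 of 9 absorptive cell markers were lower, and so were all 7 enteroendocrine markers. Of 7 stem and cycling cell markers 5 were lower (7 with the mouse block), as were 3 of 5 tuft cell markers tested (4 with the block). The part of these cell types in the differences of the class I genes was not tested. In these bulk samples, fewer cells of a type and less RNA per cell cannot be told apart.

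No gene of the set was higher in tdTom+ cells and 5 of 10 were lower: B2m, Psmb8, Psmb10, H2-K1 and Tapbp. The call was an adjusted p under 0.01 in edgeR over all 15841 genes tested, of which 25.5% were lower and 25.5% higher. At an unadjusted p under 0.05 there were 8 lower and 0 higher, and DESeq2 and limma-voom each called 5 lower and 0 higher. With the mouse as a block, so that each tdTom+ sample was read against the tdTom− sample of its own mouse, 8 of 10 were lower and 0 higher, Tap1, Tap2 and Psmb9 being added (28.9% of all genes lower, 28.4% higher). The median log2 fold change of the 10 genes was -0.43, beside 0.0039 over all genes tested. In 7 of the 10 genes the tdTom+ sample was below the tdTom− sample in 8 of 8 mice, which was so for 26.0% of all genes tested. In 2 of the 10, B2m and Psmb10, every tdTom+ sample was below every tdTom− sample, which was so for 15.3% of all genes tested.

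**Figure D1:**
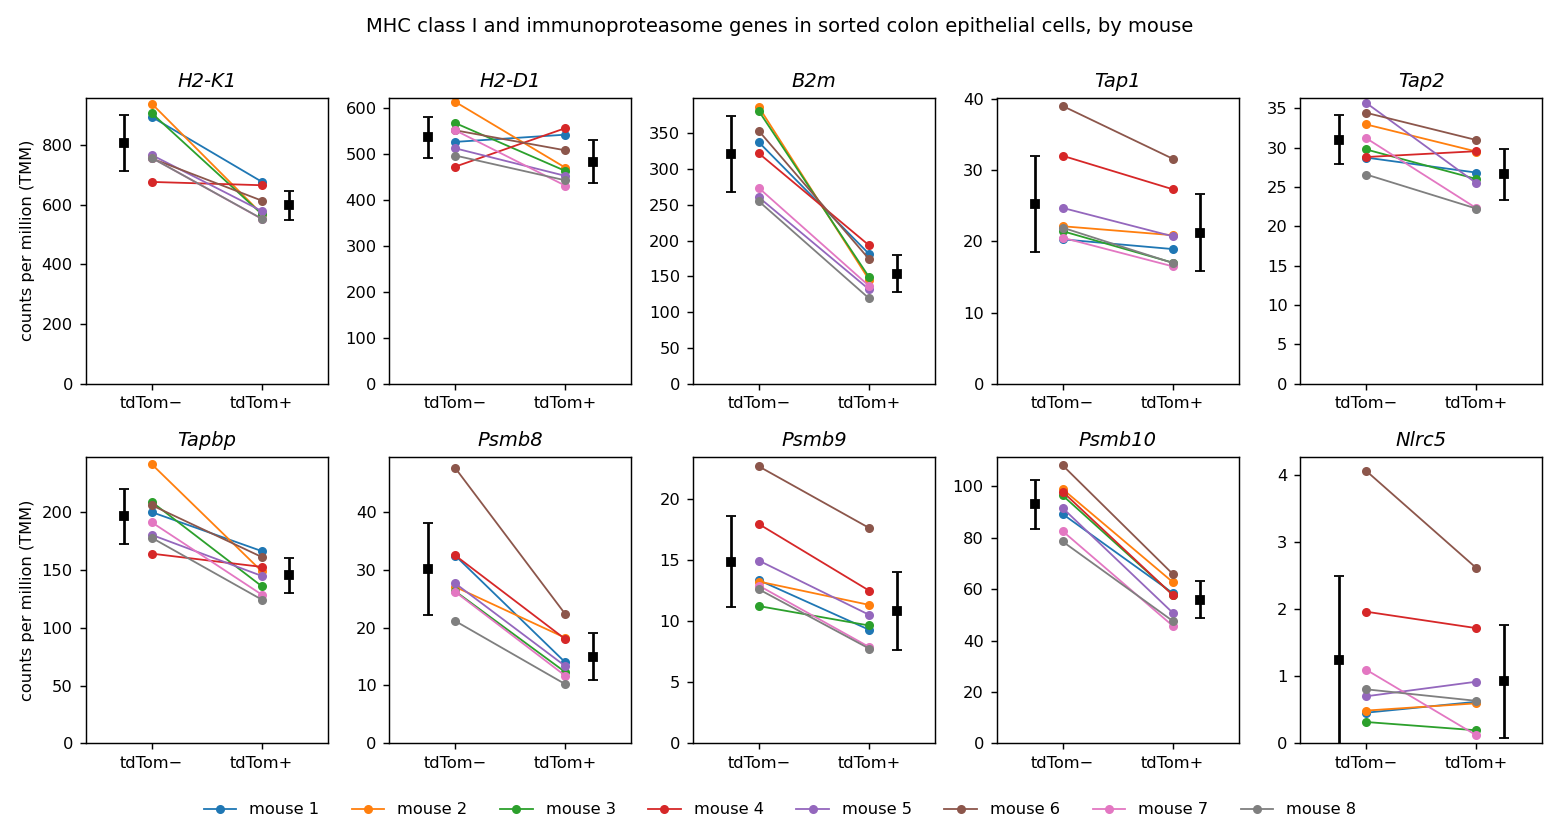
Each panel plots 1 gene in CPM (linear axis from 0) for the tdTom− and tdTom+ sample of each of 8 mice, with a line per mouse and black squares for the mean ± SD of the 8 samples (the lower bar of Nlrc5 in tdTom− cells is cut at 0). B2m and Psmb10 show no overlap between the populations, and mouse 6 is the highest in both populations for Tap1, Psmb8, Psmb9, Psmb10 and Nlrc5.

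B2m, the light chain that every classical class I molecule needs, was lower in tdTom+ cells. Its level in tdTom+ cells was 119 CPM at the lowest, 147 at the median and 193 at the highest, and in tdTom− cells 255, 330 and 386. The highest tdTom+ sample was below the lowest tdTom− sample. B2m fell 2.09-fold (log2 fold change -1.06 ± 0.11 SE, adjusted p = 4.6e-08, n = 8 mice), and the difference within a mouse ran from -1.41 to -0.73 on the log2 scale, lowest in mouse 2 and nearest to 0 in mouse 4.

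Of the 2 heavy chains, H2-K1 was called and H2-D1 was not. H2-K1 had 552, 574 and 677 CPM (lowest, median, highest) in tdTom+ cells and 676, 762 and 939 CPM in tdTom− cells. It fell 1.35-fold (log2 fold change -0.43 ± 0.08 SE, adjusted p = 5.5e-05) and was lower in 8 of 8 mice, although mouse 4, at -0.02 on the log2 scale, was hardly so. H2-D1 had 431, 467 and 556 CPM in tdTom+ cells and 472, 539 and 614 CPM in tdTom− cells, and the groups overlapped. Its log2 fold change was -0.15 ± 0.07 SE and did not pass the test without or with the mouse block (adjusted p = 0.069 and 0.049). Mice 1 and 4 had the higher H2-D1 level in tdTom+ cells, and the other 6 had the lower. Of all distinct 50-base words of the annotated transcripts, the length of a read, 9.63% of those of H2-K1 and 12.8% of those of H2-D1 also occur in transcripts of other genes, so reads there can be placed on either copy, and the share for B2m was 0.

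The peptide transporter genes differed little between the populations. Tap1 had 16.5, 19.8 and 31.6 CPM (lowest, median, highest) in tdTom+ cells and 20.3, 22.04 and 39.1 CPM in tdTom− cells. The groups overlapped widely, with mice 4 and 6 high in both populations, yet the tdTom+ sample was the lower in 8 of 8 mice. Its log2 fold change of -0.25 ± 0.16 SE did not pass (adjusted p = 0.16), and with the mouse block it did (-0.25 ± 0.05, adjusted p = 0.00058). Tap2 had 22.2, 26.4 and 31.0 CPM in tdTom+ cells and 26.6, 30.5 and 35.7 CPM in tdTom− cells, and was lower in 7 of 8 mice, with mouse 4 as the exception. Its log2 fold change was -0.22 ± 0.08 SE, with an adjusted p of 0.021 without the block and 0.0045 with it.

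Tapbp encodes tapasin, which bridges the class I molecule and the transporter. Its level ran from 124 through a median of 147 to 167 CPM in tdTom+ cells and from 164 through 196 to 242 CPM in tdTom− cells. It fell 1.35-fold (log2 fold change -0.43 ± 0.08 SE, adjusted p = 6.6e-05), in 8 of 8 mice, and the ranges of the populations touched only through mouse 1 among the tdTom+ samples and mouse 4 among the tdTom− samples. Of its exonic bases, 61 (1.85%) are shared with Zbtb22 on the same strand.

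The 3 immunoproteasome subunits were lower in tdTom+ cells in 8 of 8 mice each. Psmb8, which takes the place of Psmb5, had 10.2, 13.6 and 22.3 CPM in tdTom+ cells and 21.1, 27.3 and 47.6 CPM in tdTom− cells. It fell 2.01-fold (log2 fold change -1.01 ± 0.16 SE, adjusted p = 1.9e-05), and only the tdTom+ sample of mouse 6 reached into the range of the tdTom− samples. Psmb10, which takes the place of Psmb7, had 45.7, 57.8 and 65.9 CPM in tdTom+ cells and 78.5, 94.0 and 108 CPM in tdTom− cells, with no overlap. It fell 1.66-fold (log2 fold change -0.73 ± 0.08 SE, adjusted p = 7.7e-08).

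Psmb9, which takes the place of Psmb6, had 7.76, 10.1 and 17.6 CPM in tdTom+ cells and 11.2, 13.3 and 22.7 CPM in tdTom− cells. The groups overlapped, with mouse 6 far above the other mice in both. Its log2 fold change of -0.46 ± 0.16 SE missed the threshold (adjusted p = 0.019) and passed it with the mouse block (-0.47 ± 0.07, adjusted p = 2.2e-05). Without mouse 6 it also passed (-0.48, adjusted p = 0.0023).

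Nlrc5 was the lowest of the 10 and varied widely between mice. It had 2 to 101 counts per sample, or 0.120, 0.627 and 2.61 CPM (lowest, median, highest) in tdTom+ cells and 0.318, 0.754 and 4.06 CPM in tdTom− cells. The tdTom+ sample was higher in 3 mice and lower in 5. Its log2 fold change of -0.43 ± 0.52 SE was within the spread between samples (adjusted p = 0.49, and 0.21 with the mouse block). The SE fell to 0.25 with the mouse block.

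**Figure D2:**
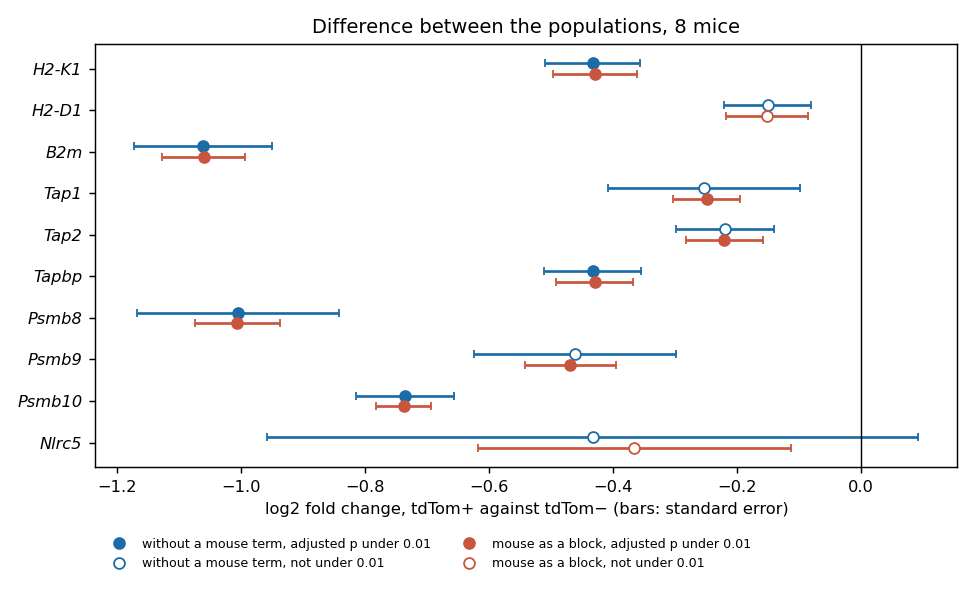
Points are log2 fold changes of tdTom+ against tdTom− cells from edgeR with their standard errors, in blue without a mouse term and in red with the mouse as a block, and filled points have an adjusted p under 0.01. The estimates of both fits are nearly equal, and Tap1, Tap2 and Psmb9 are filled only with the block.

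The level of each gene per kilobase of annotated exon sets the genes side by side. The length joins all annotated exons of a gene, with 860 bases for B2m, 2608 for H2-K1, 3659 for Psmb9 and 5476 for Tap1. A single transcript can be shorter, so the order of the genes depends on these lengths as well. In tdTom− cells B2m was first at 373 ± 61.3 CPM per kb (SD, n = 8), ahead of H2-K1 (309 ± 35.9) and H2-D1 (208 ± 17.2). Psmb10 (73.2 ± 7.5) and Tapbp (59.6 ± 7.24) followed, and then Psmb8 (11.0 ± 2.90), Tap2 (8.20 ± 0.83), Tap1 (4.62 ± 1.23), Psmb9 (4.06 ± 1.02) and Nlrc5 (0.162 ± 0.164). The ranges over samples overlapped between B2m and H2-K1, between Psmb10 and Tapbp, and between neighbours from Psmb8 to Psmb9, so those neighbours are not ordered beyond their spread.

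In tdTom+ cells B2m, at 179 ± 30.4 CPM per kb, came behind H2-K1 (229 ± 18.97) and H2-D1 (187 ± 18.1), with overlapping ranges. Tapbp (44.2 ± 4.54) and Psmb10 (44.0 ± 5.64) were level. Tap2 (7.04 ± 0.87) had a higher mean than Psmb8 (5.48 ± 1.5), but their ranges overlapped (5.88 to 8.19 and 3.73 to 8.15), so they are not ordered beyond their spread. Tap1 was at 3.88 ± 1.00, Psmb9 at 2.96 ± 0.87 and Nlrc5 at 0.121 ± 0.110 CPM per kb.

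Ratios taken within each sample do not depend on the scaling between libraries. Their size does depend on the exon lengths used. For 6 ratios of counts per kb, the difference between the populations of a mouse was tested with an exact two-sided paired permutation test over 8 mice, whose smallest possible p is 0.00781, adjusted over the 6. B2m relative to the sum of H2-K1 and H2-D1 was 0.361, 0.429 and 0.477 (lowest, median, highest) in tdTom+ cells and 0.613, 0.734 and 0.846 in tdTom− cells. It was 1.68-fold lower in tdTom+ cells, with a mean log2 difference of -0.75 ± 0.09 (SD over 8 mice, exact permutation p = 0.00781, adjusted 0.00937), and the groups did not overlap. The ratio of H2-K1 to H2-D1 was 1.18 to 1.27 in tdTom+ cells and 1.35 to 1.68 in tdTom− cells. This difference was small, at -0.28 ± 0.11 on the log2 scale, but lower in 8 of 8 mice (exact permutation p = 0.00781, adjusted 0.00937).

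Each immunoproteasome subunit was lower relative to the standard subunit it replaces. Psmb8 per Psmb5 was 0.0407, 0.0586 and 0.0921 (lowest, median, highest) in tdTom+ and 0.0957, 0.139 and 0.186 in tdTom− cells, or 2.28-fold lower (-1.19 ± 0.24 on the log2 scale). Psmb10 per Psmb7 was 0.504, 0.593 and 0.712 against 0.825, 0.988 and 1.18, or 1.66-fold lower (-0.73 ± 0.17). Neither ratio overlapped between the populations. Psmb9 per Psmb6 was 0.0410, 0.0461 and 0.0813 against 0.0551, 0.0801 and 0.111, or 1.56-fold lower (-0.65 ± 0.17), with overlap. All 3 were lower in 8 of 8 mice, with an exact permutation p of 0.00781 each, adjusted 0.00937.

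The 2 transporter genes kept no such difference. Tap1 per Tap2 was 0.452 to 0.705 in tdTom+ and 0.455 to 0.784 in tdTom− cells, with a mean log2 difference of -0.02 ± 0.17 that was lower in 5 mice and higher in 3 (exact permutation p = 0.664, adjusted 0.664). Within a mouse it ran from -0.27 to 0.23, and without mouse 4 its mean was 0.01.

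**Figure D3:**
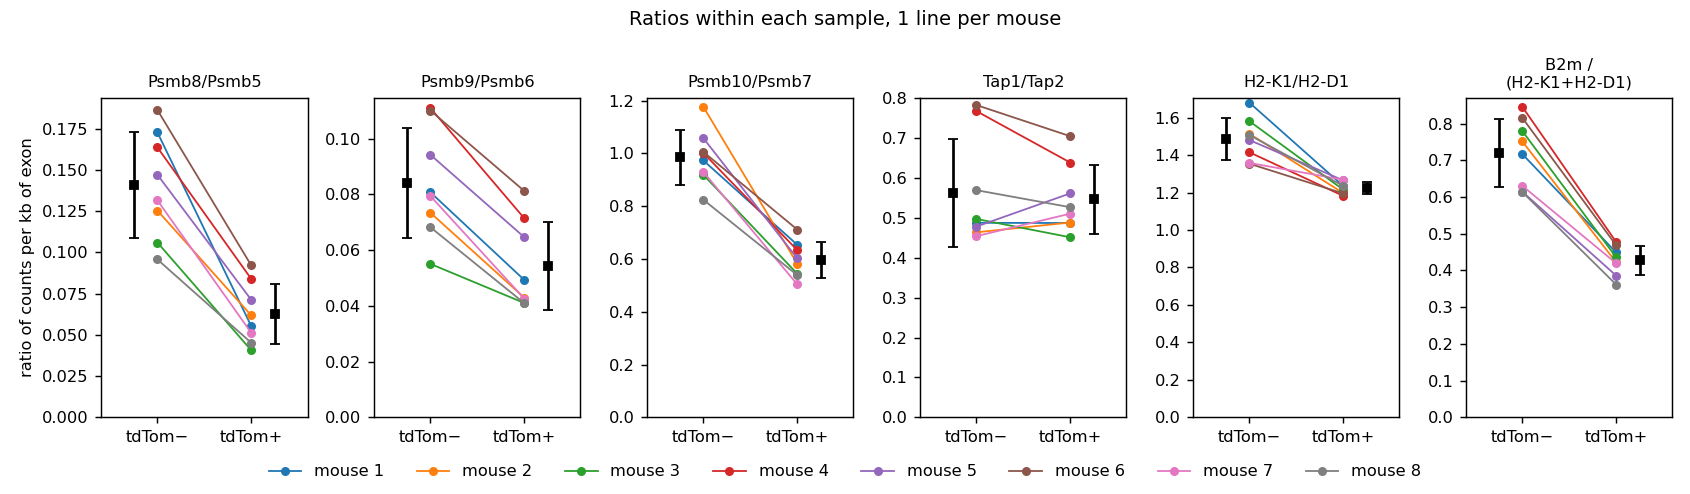
Ratios of counts per kb of exon within each sample (linear axes from 0), 1 line per mouse, with black squares for the mean ± SD of 8 samples. The lines of 5 ratios descend in all 8 mice, and those of Tap1/Tap2 go both ways.

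The standard catalytic subunits themselves, Psmb5, Psmb6 and Psmb7, gave 0 calls in either direction among 3, also at an unadjusted p under 0.05 and in DESeq2 and limma-voom. Psmb5 had 77.5 ± 12.5 CPM (SD) in tdTom+ and 68.1 ± 8.27 CPM in tdTom− cells (log2 fold change 0.19 ± 0.09 SE, adjusted p = 0.089), and Psmb7 had 89.7 ± 8.13 and 90.4 ± 8.10 CPM (-0.01 ± 0.06, adjusted p = 0.88). Psmb6 had 103 ± 17.3 and 91.0 ± 9.75 CPM (0.18 ± 0.09, adjusted p = 0.084) and was called higher with the mouse block alone (adjusted p = 0.0097). Of 12 further subunits of the proteasome core 11 were tested, and Psmb1 was the 1 called, 0.32 ± 0.10 higher (adjusted p = 0.0062), a call lost in 5 of the 8 fits without 1 mouse. The median log2 fold change of those 11 was 0.08, and that of the 3 standard catalytic subunits was 0.18.

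Among 10 proteasome activators and assembly factors, 2 rose and 2 fell. The measure for the counts of this and every other list is that 25.5% of all genes tested rose and 25.5% fell. Those that fell were Psme1 and Psme2, the 2 subunits of the interferon-inducible activator ring, at -0.35 ± 0.08 (adjusted p = 0.00091) and -0.53 ± 0.09 (adjusted p = 1.5e-05), in 8 of 8 mice each. Psme2 was at 84.1 ± 12.5 CPM in tdTom+ cells and 122 ± 12.8 in tdTom− cells. Psme4, a single-chain activator, rose by 0.27 ± 0.08, a call lost in 5 of the 8 fits without 1 mouse. Psmg2, an assembly chaperone, rose by 0.23 ± 0.06 (lost in 1 of 8), and Psme3, a relative of Psme1, was at -0.07 ± 0.07 (adjusted p = 0.35).

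Some chaperones that serve class I molecules were higher in tdTom+ cells. Of 12 genes of peptide loading and trimming, 5 rose and 2 fell, with a median of 0.17. Pdia3, the disulphide isomerase joined to tapasin in the loading complex, had 1463 ± 126 CPM in tdTom+ cells and 550 ± 49.0 in tdTom− cells (1.41 ± 0.07, adjusted p = 8.8e-13). Hspa5, the general chaperone of the endoplasmic reticulum, had 1299 ± 215 and 493 ± 68.5 CPM (1.40 ± 0.11, adjusted p = 3.7e-10). Calr, which binds the sugar of new class I chains and of many other glycoproteins, rose by 1.09 ± 0.08 (adjusted p = 1.7e-10), and none of the 3 overlapped between the populations. All 3 serve secretory proteins in general. Canx, another such chaperone, was at 0.16 ± 0.06 and did not pass (adjusted p = 0.024). The peptidases Lap3 and Tpp2 rose by 0.68 ± 0.06 and 0.20 ± 0.06 (adjusted p = 4.0e-09 and 0.0082). The members that fell were the cytosolic peptidases Npepps (-0.41 ± 0.06, adjusted p = 1.8e-06) and Blmh (-0.25 ± 0.06, adjusted p = 0.0006), while the trimming enzyme Erap1 was at -0.05 ± 0.07 (adjusted p = 0.59). Tapbpl, a tapasin relative, was at -0.24 ± 0.09, lower in 8 of 8 mice and called only with the mouse block (adjusted p = 0.02 without and 0.0012 with it).

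The other class I and class I-like genes went in both directions. Of 26 listed, 21 were tested, 4 rose and 7 fell, with a median of -0.03. H2-T3, which encodes the thymus leukaemia antigen of intestinal epithelium, had 6.82 ± 1.69 CPM in tdTom+ cells and 44.2 ± 9.08 in tdTom− cells (-2.69 ± 0.15, adjusted p = 3.9e-12). Fcgrt, the heavy chain of the neonatal Fc receptor, which also pairs with B2m, had 18.2 ± 3.05 and 73.1 ± 11.2 CPM (-2.004 ± 0.11, adjusted p = 1.6e-12). H2-M3, which presents formylated peptides, rose from 3.98 ± 0.65 to 11.9 ± 0.88 CPM (1.59 ± 0.10, adjusted p = 1.1e-11), and H2-T22 rose from 36.7 ± 2.90 to 53.0 ± 4.75 CPM (0.53 ± 0.06, adjusted p = 3.2e-07). H2-T22 shares 34.5% of its 50-base words with other genes, mostly H2-T10, so the counts of these 2 genes are uncertain, as are those of H2-Q6 (32.0%) and H2-Q7 (26.4%). For H2-T3 and H2-M3 the shares were 0.894% and 0.576%. H2-T10 and H2-Q7 were the others that rose, by 0.49 ± 0.07 and 0.32 ± 0.10 (adjusted p = 5.2e-06 and 0.0087). The others that fell were H2-K2 (-1.22 ± 0.11), H2-Q1 (-1.18 ± 0.10), H2-Q2 (-1.17 ± 0.09), Azgp1 (-1.12 ± 0.20) and H2-Bl (-0.54 ± 0.12). H2-K2, H2-Q1 and H2-Q2 did not overlap between the populations, and they share 9.38%, 15.0% and 16.1% of their 50-base words with other genes.

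Of 21 regulators of class I transcription, 9 fell and 2 rose, with a median of -0.16. Irf7, an interferon regulatory factor, had 18.9 ± 2.86 CPM in tdTom+ cells and 149 ± 44.4 in tdTom− cells (-2.98 ± 0.15, adjusted p = 6.6e-13). Ciita, the class II counterpart of Nlrc5, had 0.540 ± 0.442 and 1.63 ± 1.27 CPM (-1.58 ± 0.50, adjusted p = 0.0098), a call that 7 of the 8 fits without 1 mouse lost. Irf1, which binds the promoters of several of the 10 genes, was 0.90 ± 0.08 lower on the log2 scale, from 136 to 72.8 CPM (adjusted p = 2.7e-09). Stat2 rose by 0.42 ± 0.09 (adjusted p = 0.00055) and Nfyb, a subunit of the CCAAT-binding factor, by 0.35 ± 0.07 (adjusted p = 0.00016). Nfya, its partner, fell by 0.31.

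The interferon receptors and their signalling genes gave 5 lower and 1 higher of 12, with a median of -0.35. Both chains of the interferon gamma receptor fell in 8 of 8 mice without overlap. Ifngr1 had 92.8 ± 7.34 CPM in tdTom+ cells and 216 ± 28.2 in tdTom− cells (-1.22 ± 0.08, adjusted p = 2.2e-11), and Ifngr2 had 72.9 ± 4.04 and 128 ± 15.9 CPM (-0.81 ± 0.07, adjusted p = 1.4e-09). Jak1, a kinase of these receptors, rose by 0.41 ± 0.06 (adjusted p = 3.0e-06), while Jak2 fell by 0.41. The others that fell were Ifnlr1, a chain of the interferon lambda receptor, by 0.44, and Ifnar1, a chain of the type I interferon receptor, by 0.36.

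Other interferon-stimulated genes showed no single direction. Of 32 listed, 29 were tested, 12 fell and 5 rose, with a median of -0.41. Ifit3 had 0.142 ± 0.102 CPM in tdTom+ cells and 1.80 ± 0.67 in tdTom− cells (-3.59 ± 0.35, adjusted p = 1.5e-08), and Ifit1 had 1.16 ± 0.43 and 10.5 ± 2.44 CPM (-3.15 ± 0.21, adjusted p = 3.3e-11). Oas2 had 2.57 ± 0.56 and 1.07 ± 0.31 CPM (1.27 ± 0.18, adjusted p = 5.0e-06), and Gbp3 had 2.17 ± 1.00 and 0.974 ± 0.559 CPM (1.09 ± 0.31, adjusted p = 0.0047, lost in 3 of the 8 fits without 1 mouse). Mx1 and the guanylate-binding proteins Gbp6 and Gbp7 also rose, by 0.85 ± 0.25, 1.07 ± 0.28 and 1.02 ± 0.24. Gbp8, of the same family, was called lower at -1.82 ± 0.23 (adjusted p = 8.9e-07). Ubd (-2.22), Cd274 (-1.54), Ifi47 (-1.38), Rsad2 (-1.36) and Isg15 (-1.16) were also called lower. All 5 genes that rose are named here, but not all of the 12 that fell. Over the 8 lists together, 119 of 128 genes were tested, 20 rose and 37 fell, and the median was -0.03. Over all genes tested 25.5% rose and 25.5% fell.

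**Figure D4:**
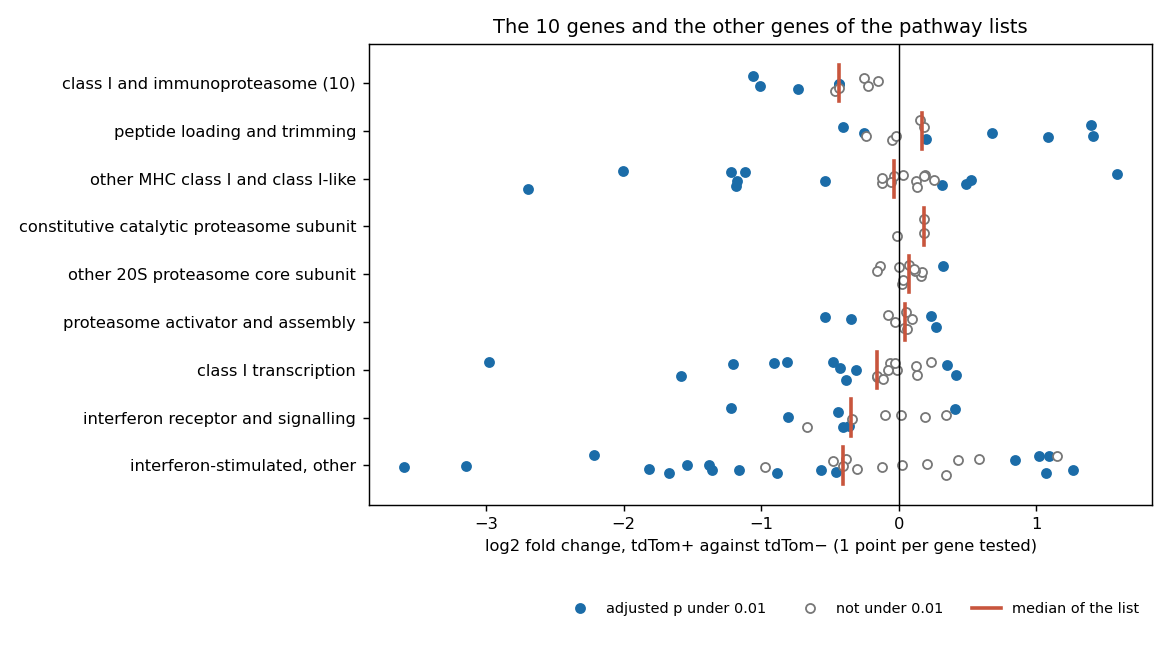
Each point is the log2 fold change of 1 tested gene, tdTom+ against tdTom−, for the 10 genes and for 8 lists of related genes, with calls at an adjusted p under 0.01 in blue and list medians in red. The 10 genes lie to the left of 0, from -1.06 to -0.15, and the lists of loading factors, other class I genes, transcription and interferon genes reach to both sides.

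Markers of leukocytes, which carry class I and the immunoproteasome at high levels, were read in both populations. For scale, Psmb9, a low gene of the set, averaged 10.8 CPM in tdTom+ and 14.9 in tdTom− cells. Of 6 pan-leukocyte markers, Ptprc was 6.23 CPM in tdTom− cells and 2.17 in tdTom+ cells (log2 fold change -1.52, called lower), Lcp1 was called higher (8.63 and 23.8 CPM), Vav1 was not called, and 3 were too low to test. The summed level of the 6 was 36.7 to 44.9 CPM in tdTom+ samples and 21.8 to 33.3 in tdTom− samples. Most of it came from Lcp1 and Vav1, the latter at 14.4 CPM in tdTom+ and 12.1 in tdTom− cells. The 3 not tested averaged lower in tdTom+ cells. Coro1a was at 0.179 in tdTom+ and 0.422 CPM in tdTom− cells, Laptm5 at 0.0247 and 0.55, and Cd52 at 0.0775 and 0.208. The 9 T cell markers summed to 0.732 to 1.79 and 0.616 to 2.04 CPM, with 1 of 9 tested and none called. Cd3g was at 0 in all 8 tdTom+ samples, and Cd3e was at or below 0.113 and 0.216 CPM in every sample of the respective population.

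The summed level of the 9 myeloid markers was 1.34 to 5.42 CPM in tdTom+ cells and 2.77 to 28.5 in tdTom− cells, with overlap. Lyz2 alone reached 19.6 CPM in the highest tdTom− sample, beside a tdTom− median of 1.95. Of the 9, 2 were tested, and Cd68 was called lower in tdTom+ cells, as was Lyz2 with the mouse block alone. Lyz2, Csf1r, Cd68, C1qb and Itgax, 5 of the 9, were lower in tdTom+ cells in 8 of 8 mice. Csf1r averaged 0.0585 and 0.591 CPM in tdTom+ and tdTom− cells, C1qb 0.0684 and 0.503, and Itgax 0.0258 and 0.342. C1qa averaged higher in tdTom+ cells (0.506 and 0.403 CPM). The 6 B and plasma cell markers summed to 0.120 to 0.958 and 0.521 to 2.23 CPM. The 5 fibroblast markers reached at most 0.525 and 0.812 CPM in sum. Of 4 endothelial markers Pecam1 was called lower in tdTom+ cells (0.871 and 2.63 CPM), with Cdh5 at 0 in all tdTom+ samples. The part of leukocyte RNA in the differences of the class I genes was not tested.

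Mice also differed among themselves, and for Tap1, Psmb8, Psmb9 and Psmb10 the levels in the 2 populations were correlated over mice by Pearson's r alone. The correlation of the tdTom− level with the tdTom+ level over 8 mice, on the log2 CPM scale, was tested with exact two-sided permutation tests for 10 genes and adjusted over the 10. Pearson's r was 0.95 for Tap1 (exact p = 0.0021, adjusted 0.014) and Spearman's rho was 0.81 (exact p = 0.022, adjusted 0.073). For Psmb10 r was 0.90 (exact p = 0.0028, adjusted 0.014) and rho 0.81 (exact p = 0.022, adjusted 0.073). Psmb9 had r = 0.87 (exact p = 0.0064, adjusted 0.016) and rho = 0.76 (exact p = 0.037, adjusted 0.092), and Psmb8 had r = 0.84 (exact p = 0.0051, adjusted 0.016) and rho = 0.86 (exact p = 0.011, adjusted 0.073). No rho passed 0.05 once adjusted.

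Leaving out mice changed most of these correlations. Mouse 6 stood highest in both populations for Tap1, Psmb8, Psmb9, Psmb10 and Nlrc5, and mouse 4 was second in both for Tap1, Psmb9 and Nlrc5. Without the 2 mice farthest from the median tdTom− level, r was 0.60 for Tap1 and 0.32 for Psmb9 (without mice 4 and 6), and 0.47 for Psmb8 and 0.84 for Psmb10 (without mice 6 and 8). None of those passed once adjusted over the 10 genes. For Tap1, Psmb8 and Psmb9 r was lower without those mice, while r for Psmb10 stayed near its value over 8 mice (exact p = 0.039 at n = 6, before adjustment). Leaving out the farthest mice narrows the range and leaves 6 mice, so it cannot tell whether a relation rests on them. Whether Psmb10 differs in this from the other 3 genes was not tested. The mouse numbers of the labels fall into 3 series, mice 1 to 3, mouse 4 and mice 5 to 8, each too small for a correlation of its own.

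For the other 6 genes no correlation passed, and whether they differ in this from the 4 above was not tested. For H2-K1 r was -0.15 (exact p = 0.70, adjusted 0.70) and rho -0.17 (exact p = 0.70, adjusted 0.78), and for H2-D1 r was -0.33 (exact p = 0.42, adjusted 0.52) and rho -0.10 (exact p = 0.84, adjusted 0.84). For Tapbp r was 0.21 (exact p = 0.62, adjusted 0.69) and rho 0.21 (exact p = 0.62, adjusted 0.77), and for Tap2 r was 0.40 (exact p = 0.33, adjusted 0.47) and rho 0.29 (exact p = 0.50, adjusted 0.71). For B2m r was 0.57 (exact p = 0.14, adjusted 0.23) and rho 0.52 (exact p = 0.20, adjusted 0.33), and for Nlrc5 r was 0.69 (exact p = 0.061, adjusted 0.12) and rho 0.60 (exact p = 0.13, adjusted 0.26). Without the 2 mice farthest from the median, r was 0.19 for H2-K1, 0.12 for H2-D1, 0.52 for Tapbp, 0.32 for Tap2, 0.07 for B2m and -0.10 for Nlrc5. The spread between mice was narrow for H2-K1 (SD 0.17 in tdTom− and 0.12 in tdTom+ cells on the log2 scale) and wide for Psmb9 (0.32 and 0.38).

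**Figure D5:**
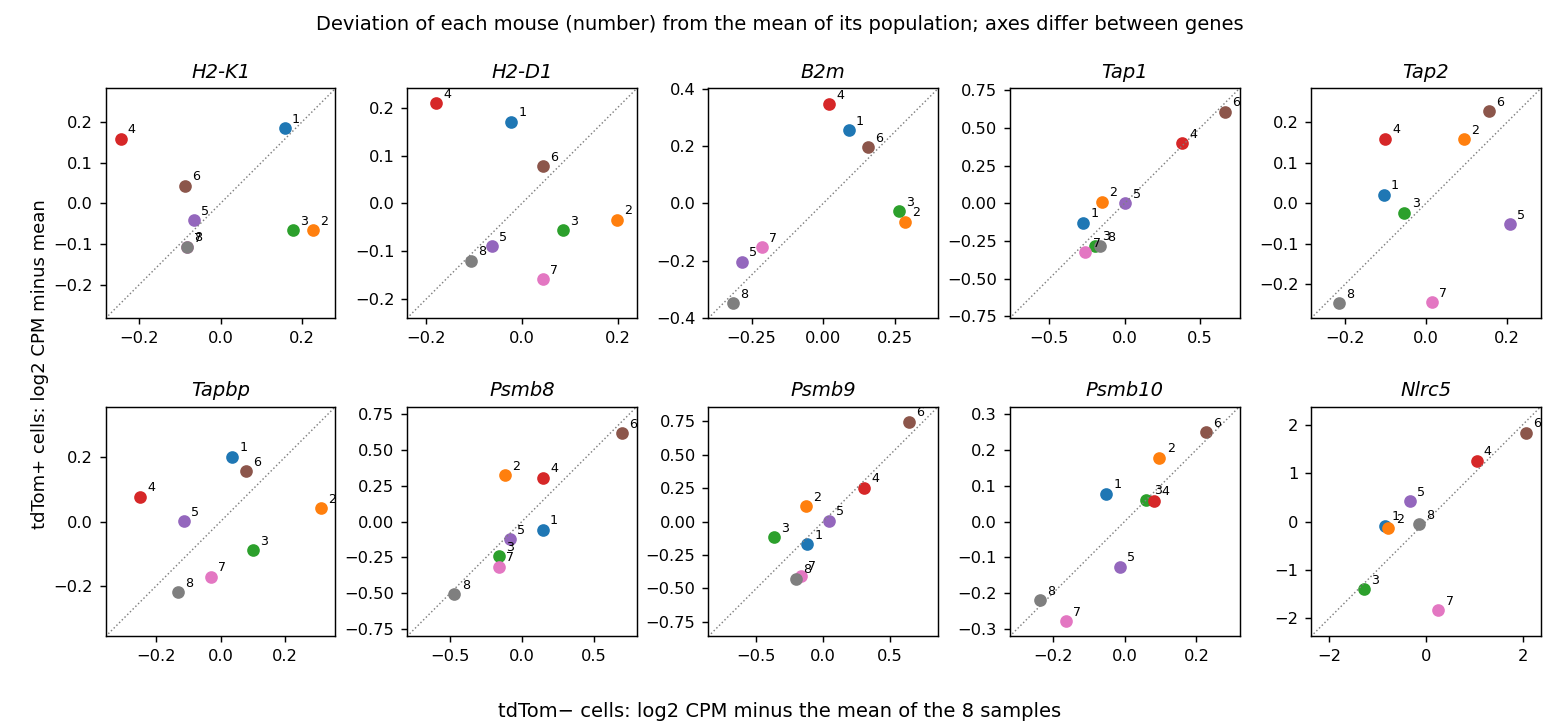
For each gene, the deviation of each mouse from the mean log2 CPM of its population is plotted for tdTom− (x) and tdTom+ cells (y), with the mouse number beside the point, a dotted line where both are equal, and axes that differ between genes. Mouse 6 lies at the upper right for Tap1, Psmb8, Psmb9, Psmb10 and Nlrc5, and mouse 4 at the upper left for H2-K1 and H2-D1.

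The 5 genes called lower were lower in both series with several mice. On the log2 scale, the mean difference in mice 1 to 3 and in mice 5 to 8 was -1.22 and -1.02 for B2m, -0.60 and -0.40 for H2-K1, -0.53 and -0.44 for Tapbp, -0.95 and -1.09 for Psmb8, and -0.67 and -0.78 for Psmb10. Mouse 4 alone was at -0.73 for B2m, -0.85 for Psmb8 and -0.76 for Psmb10, but at -0.10 for Tapbp and -0.02 for H2-K1. Without mouse 4 all 5 calls held. For Nlrc5, which was not called, the means were 0.035 in mice 1 to 3 and -0.76 in mice 5 to 8.

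Of 10050 other genes with a mean of at least 10 CPM, those whose deviations from the population means followed the mean deviation of the 10 genes most closely over the 16 samples were found by Pearson's r, as a description with no test. That mean is not weighted, so the genes that vary most between mice count most. The widest spread was that of Nlrc5 (SD 1.10 in tdTom− and 1.22 in tdTom+ cells on the log2 scale), with only 2 to 101 counts per sample. The closest was Cd74 (r = 0.84, with 10.6 CPM in tdTom+ cells and 34.0 in tdTom− cells), ahead of Tapbpl (0.81), H2-Ab1 (0.79) and Wdr92 (0.78). Znhit2 (0.78), Gnl1 (0.77), H2-Q6 (0.76), Irgm1 (0.76) and Mboat7 (0.74) were also among the 10 closest. Samples of the same mouse share an animal, and H2-Q6 shares 32.0% of its 50-base words with other genes.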

How the data were processed

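RNA was sequenced from EpCAM+ tdTom+ and EpCAM+ tdTom− cells of 8 mice, as stranded mRNA libraries with single-end reads of 50 bases. The authors aligned the reads with TopHat2 (2.1.1 in the submitters' notes) to GRCm38 and deposited raw counts of primary alignments per gene, made on exons with strand by featureCounts (v1.5.0-p1 in the file headers, Subread 1.5.2 in the notes). Reads of near-identical genes can go to either copy, and exon lengths are those of all annotated exons joined.

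Counts were compared with edgeR 4.0.16 (filterByExpr, TMM, quasi-likelihood test, no mouse term, Benjamini-Hochberg adjustment over all 15841 genes tested, threshold 0.01), in R 4.3.3. SE is the log2 fold change over the root of the F statistic. CPM values use TMM, and log2 CPM a prior count of 2. The labels give the 2 samples of a mouse the same number, which pairs them. Deviations of same-mouse samples correlated over genes at 0.22 to 0.41, and those of different mice at -0.26 to 0.17. Alternatives were the mouse block, DESeq2 1.42.0, limma-voom (limma 3.58.1), 3 other scalings, 2 other filters, a threshold of 0.05, series of mice and each mouse left out. Exact permutation tests used 256 sign flips or 40320 pairings (numpy 2.4.6). The edgeR fits were tested on simulated counts.

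The 10 genes and all lists were chosen with earlier results of these data known. Beyond the 10, each list names the 2 genes with the largest called rise and the 2 with the largest called fall (all of a list of 3), and others were named after their values were seen. Gene symbols were matched for 44585 of 45513 genes. Motif windows are RefSeq's for GRCm38.p6, and 50-base words come from GENCODE M21 transcripts. At 16482530 to 45791503 counts per sample, genes under 1 CPM have wide errors. Replicates are separate mice, and none was a duplicate. Counting error is the least error a value can have. Of the 10 genes closest to the set in their deviations, 1 is not reported here.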

Additional observations from a re-analysis of the deposited data

How the results depend on the processing

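The 10 class I and immunoproteasome genes had estimates below 0 in every alternative that tested them, 188 in all, and none of the 5 calls was lost. The threshold of 0.05 is counted there as an alternative, although its estimates are those of the main fit. Nlrc5 was not tested in the fit of mice 1 to 3 or with at least 10 counts in every sample. The count of calls lower in tdTom+ rose from 5 to 8 with the mouse as a block, which added Tap1 (-0.25), Tap2 (-0.22) and Psmb9 (-0.47), no call of the set or of a gene named by rule from the lists was lost under it, and of the latter it added Psmb6. With library size alone Tap2 passed (-0.27), and at an adjusted p of 0.05 Tap2 (-0.22) and Psmb9 (-0.46) passed. Leaving out 1 mouse gave -0.49 to -0.43 for Psmb9. Over the 8 lists, the higher calls (20) fell to 9 in mice 1 to 3 alone, where fewer samples were tested, and to 13 to 20 with 1 mouse left out, the lowest without mouse 7. Of 508 estimates for single genes named from the lists, counted in the same way, 464 kept their side. A further 39 no longer passed, 14 of them within 1 series of mice, and 4 for Psmb7, which never passed, changed sign (-0.058 to 0.025 with 1 mouse left out, 0.12 in mice 1 to 3).

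The 5 ratios called held in the unpaired exact test and without any 1 mouse, and Tap1/Tap2 ran from -0.061 to 0.01 without 1 mouse. With 1 mouse left out r was 0.90 to 0.97 for Tap1, 0.70 to 0.95 for Psmb8, 0.66 to 0.92 for Psmb9 and 0.86 to 0.94 for Psmb10, and none of the 4 passed without mouse 4 or without mouse 6. Without the 2 mice farthest from the median, r was 0.60, 0.47, 0.32 and 0.84. H2-K1 (-0.55 to 0.27) and H2-D1 (-0.53 to 0.068) changed sign without mouse 4, and Nlrc5 ran from 0.44 to 0.94 and passed without mouse 7. Without the 2 farthest mice r was 0.19 for H2-K1, 0.12 for H2-D1 and -0.10 for Nlrc5. The cause of these changes was not tested. Nlrc5 had 2 to 101 counts a sample, and its spread between mice was wide as well.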

Other observations

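Among 32 groups of 8 samples examined for a sample that stood apart by Dixon's test (10 genes and 6 ratios in both populations), 0 were found, where chance gives about 1.6.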
